A study of Mus musculus with 7 samples.

Results

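Erythroid genes encode the products of the red blood cell lineage. The set described here was chosen by symbol from the lineage's regulators and receptors, heme synthesis, red cell membrane and skeleton, late maturation enzymes and globins, together with Cd24a, the gene of a surface antigen used in the sort. Of 39 listed genes, 38 had a row among the 42687 gene identifiers measured, and Ahsp was not analysed here. The 38 were Cd24a, 7 regulators and receptors, 8 heme synthesis genes, 10 membrane and skeleton genes, 8 late maturation genes and 4 globins.

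RNA was sequenced from CD24+CD29+ cells sorted from digested femurs of C57BL/6 mice that were 3 months old when a diet of 4 weeks began. The control group received a low fat diet (LFD, 10% fat; 4 libraries, LFD 1 to 4) and the other a high fat diet (HFD, 60% fat; 3 libraries, HFD 2 to 4). The labels name the cells skeletal stem cells, and the comparison asks how the diet changed their RNA. Nothing in the labels says whether each library came from 1 animal or from pooled animals, so p-values measure only the spread between these libraries.

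Red cell precursors mature in the marrow around macrophages, with erythropoietin acting through its receptor and with Gata1, Tal1 and Klf1 as the central transcription factors. Precursors take up iron through the transferrin receptor and build heme through an enzyme chain that begins and ends in the mitochondrion. They assemble a spectrin skeleton anchored to the band 3 anion exchanger, fill with globin, and then lose organelles and nucleus. In the mouse, heat stable antigen (CD24) is carried by many cells, erythroid precursors among them, as well as by B cells, neutrophils and skeletal progenitors.

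Libraries held 17391613 to 24681838 counted reads and detected 15394 to 18850 genes. Values are CPM, the gene's share of the library's reads put on a common scale by the trimmed mean of M values. Summed markers of skeletal cells were present in every library, with chondrocyte markers between 34350 and 74050 CPM and osteoblast markers between 12450 and 41460 CPM. Skeletal progenitor markers summed to 423 to 939 CPM in LFD and to 1935 to 3143 CPM in HFD. Most of the HFD sum was 1 gene, Cxcl12, with 8.50 to 207 CPM in LFD and 1116 to 1983 CPM in HFD. Of the 11 progenitor markers tested by diet, 9 were higher and 2 lower in HFD, with 0 called. Xist was counted 257 to 526 times in each LFD library and 0 times in each HFD library, while 4 Y-linked genes summed to 1 to 5 counts in LFD and 2494 to 3405 in HFD. Diet and sex of the mice therefore cannot be told apart in any difference below.

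The 38 genes took between 3.46% and 19.0% of all counts in a library, although the cells were sorted and labelled as skeletal. The share was 12.3%, 17.2%, 19.0% and 14.5% in LFD 1 to 4 and 3.46%, 9.90% and 13.6% in HFD 2 to 4. The 4 globins alone held 8.90%, 9.67%, 11.0% and 9.11% in LFD and 2.12%, 5.87% and 8.48% in HFD. HFD 2 had the smallest share, and HFD 4 lay within the range of the LFD libraries for all 38 genes together but below it for the globins alone. In bulk RNA, fewer erythroid cells and less erythroid RNA per cell cannot be told apart.

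Promoter sequence was described for the genes that had a window. GATA factors bind the hexamers AGATAA and TGATAA, and of the 38 genes 29 had a RefSeq promoter window (build GRCm38.p6). In the 250 bases before the start, 18 of those 29 (62.1%) held AGATAA or TGATAA on either strand, against 18.8% of 27025 genes with windows of the same length. The hexamer was in 3 of 4 globin windows, 4 of 6 regulator windows, 3 of 6 heme windows, 6 of 8 membrane windows and 2 of 5 late maturation windows. CCAAT was in 17 of 29 (58.6%, against 37.5% of all genes), CAGNTG in 13 of 29 (44.8%, against 48.2%), and CCACACCC in 1 of 29 (3.45%, against 3.68%), that 1 being Hbb-bs. A match is a description of letters and not a binding site. The genes were chosen as erythroid, a lineage in which Gata1 is central, so an excess of the hexamer can come with that choice. Its relation to the levels in these libraries was not tested.

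Stretches are shown from 7 genes that held the hexamer, at least 1 from each role that had a window. Windows without the hexamer are not shown. The stretches run 5′ to 3′ on the gene's strand, up to the first annotated exon base where the window reached one. Capitals mark the GATA hexamer or its reverse complement (TTATCT or TTATCA).
Hba-a2 (chr11:32296242-32296488, plus strand): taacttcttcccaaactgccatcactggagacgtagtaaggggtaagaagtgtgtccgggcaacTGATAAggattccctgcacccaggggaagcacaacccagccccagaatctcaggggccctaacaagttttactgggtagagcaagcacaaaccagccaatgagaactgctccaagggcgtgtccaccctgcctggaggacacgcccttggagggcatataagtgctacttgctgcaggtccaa
Klf1 (chr8:84901732-84901927, plus strand): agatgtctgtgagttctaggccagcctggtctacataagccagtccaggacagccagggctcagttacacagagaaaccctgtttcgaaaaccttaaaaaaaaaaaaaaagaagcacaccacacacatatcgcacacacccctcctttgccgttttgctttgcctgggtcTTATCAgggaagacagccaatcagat
Epor (chr9:21963577-21963826, minus strand): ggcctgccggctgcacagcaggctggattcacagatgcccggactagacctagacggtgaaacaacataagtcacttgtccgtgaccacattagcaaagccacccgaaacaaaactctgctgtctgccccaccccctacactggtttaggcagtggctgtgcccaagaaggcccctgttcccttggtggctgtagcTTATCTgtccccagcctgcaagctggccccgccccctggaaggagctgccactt
Alas2 (chrX:150547167-150547374, plus strand): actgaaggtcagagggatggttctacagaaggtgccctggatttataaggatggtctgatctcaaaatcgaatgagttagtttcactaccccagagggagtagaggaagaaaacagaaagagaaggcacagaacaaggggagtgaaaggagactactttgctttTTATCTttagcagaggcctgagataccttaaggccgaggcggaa
Cpox (chr16:58669958-58670207, plus strand): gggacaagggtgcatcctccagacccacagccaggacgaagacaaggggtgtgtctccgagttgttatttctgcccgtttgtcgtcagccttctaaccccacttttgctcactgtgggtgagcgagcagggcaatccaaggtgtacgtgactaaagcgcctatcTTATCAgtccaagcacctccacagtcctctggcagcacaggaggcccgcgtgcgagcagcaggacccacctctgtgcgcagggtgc
Rhd (chr4:134864286-134864535, plus strand): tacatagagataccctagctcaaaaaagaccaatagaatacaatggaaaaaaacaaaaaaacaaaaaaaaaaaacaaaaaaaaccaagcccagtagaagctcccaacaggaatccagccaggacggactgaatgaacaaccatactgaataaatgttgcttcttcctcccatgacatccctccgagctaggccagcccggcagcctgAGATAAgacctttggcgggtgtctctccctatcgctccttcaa
Trim10 (chr17:36869324-36869573, plus strand): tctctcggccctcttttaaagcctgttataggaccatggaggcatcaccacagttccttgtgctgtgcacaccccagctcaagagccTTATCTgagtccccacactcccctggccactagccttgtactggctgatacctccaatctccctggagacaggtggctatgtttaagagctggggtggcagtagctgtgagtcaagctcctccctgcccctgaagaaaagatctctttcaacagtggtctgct
The first base of the hexamer lay 186 bases before the start in Hba-a2, 80 in Klf1, 54 in Epor, 86 in Alas2, 86 in Cpox, 43 in Rhd and 163 in Trim10.

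Levels of different genes were compared as CPM per kilobase of annotated exon, counting the exons of all annotated transcripts of a gene. That length can exceed the transcript present, so the order depends on the annotation. The mean over 7 libraries was 59150 for Hbb-bs, 20390 for Hba-a1, 19150 for Hbb-bt and 8105 for Hba-a2. Hba-a1 and Hbb-bt were not separable, since Hba-a1 was the higher in 4 of 7 libraries. Below the globins stood Car2 (3762), Alas2 (2854), Slc4a1 (2036) and Cd24a (1112), and Alas2, Slc4a1 and Cd24a kept that order in all 7 libraries. Car2, a carbonic anhydrase, was above Alas2 in 6 of 7.

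Of the 37 steps between neighbours in this order, 12 held in all 7 libraries and 25 did not. The lowest were Uros (58.1), Ppox (45.8), Tal1 (14.0) and Ank1 (8.79). Ank1 has 13527 annotated exon bases and Tal1 4379. Before division by length Ank1 was the higher, with mean CPM of 148 against 75.6 in LFD and 80.1 against 42.1 in HFD. Within a role the highest mean exceeded the lowest 232-fold for membrane genes (Slc4a1 over Ank1), 62.4-fold for heme genes (Alas2 over Ppox), 55.8-fold for late genes (Car2 over Trim58), 30.5-fold for regulators (Klf1 over Tal1) and 7.30-fold for globins. The plot of length-scaled levels shows these ranges.

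**Figure D1:**
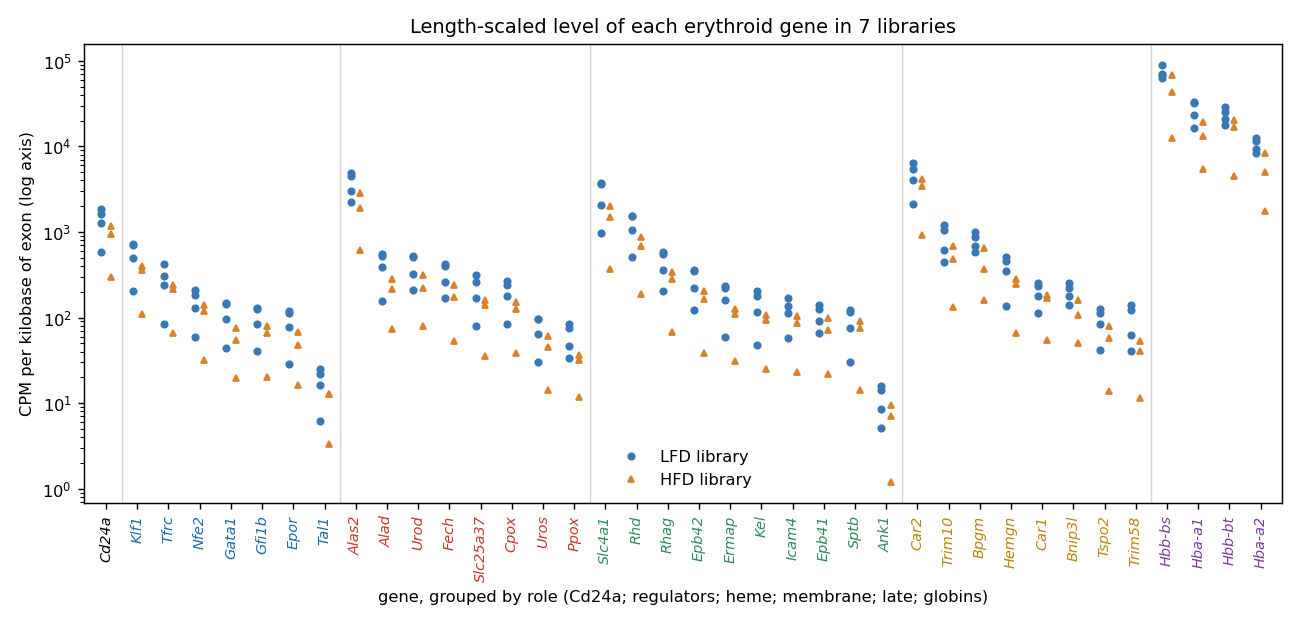
Each point is the level of a gene in a library, as CPM per kilobase of exon on a log axis; circles are LFD and triangles HFD libraries, and genes are grouped by role. Globins lie highest, led by Hbb-bs with a mean of 59150, and Ank1 lies lowest with 8.79.

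By diet, all 38 genes were lower in HFD on average, yet none passed the test. The groups overlapped for each of the 38, while 3.47% of all genes were lower in HFD with no overlap. The median log2 fold change of the 38 genes was -0.88, from -1.39 (Trim58) to -0.52 (Sptb), beside 0.02 over all 14304 genes tested, of which 48.5% were lower in HFD. In edgeR's quasi-likelihood test with Benjamini-Hochberg adjustment, 0 of 38 were called at adjusted p below 0.05 (adjusted p from 0.626 to 0.870), where 0.035% of all genes were called. By unadjusted p from edgeR, 2 of 38 passed 0.05, Ppox at 0.0384 and Trim58 at 0.0496, against 2.35% of all genes in this direction. DESeq2 and limma-voom with sample quality weights also called 0 of 38. Their calls over all genes are given in the last section. By unadjusted p below 0.05, 10 of 38 passed with DESeq2, against 3.36% of all genes in this direction, and 8 of 38 with limma-voom, against 5.15%. HFD 2 was the lowest library for all 38 genes. Without HFD 2 the median log2 fold change was -0.46, and all 38 genes remained lower in HFD. The genes moved together across libraries (median r of 0.974 over 703 pairs), so their shared direction is not 38 separate observations.

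**Figure D2:**
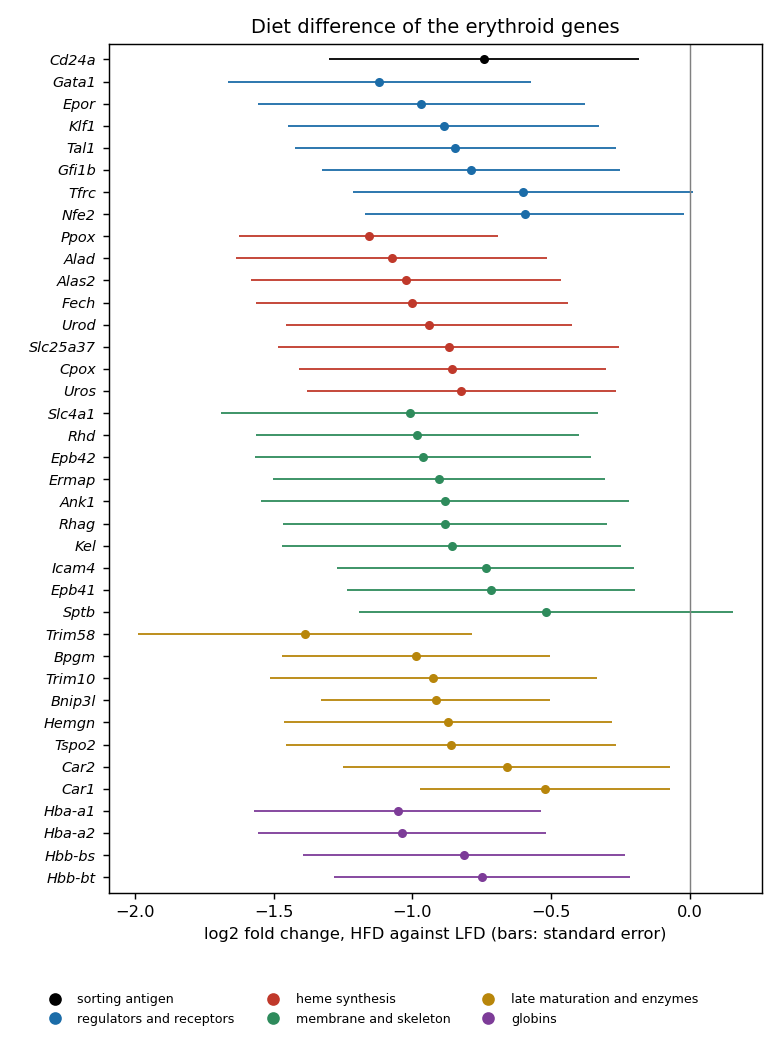
Points are edgeR log2 fold changes of HFD against LFD for 38 genes and bars their standard errors, coloured by role. All 38 points lie below 0, between -1.39 and -0.52, with 0 genes called at adjusted p below 0.05.

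Among the regulators and receptors, the median log2 fold change was -0.85, and 0 of 7 were called. Gata1 (ENSMUSG00000031162, chromosome X, 7959260 to 7978071 on GRCm38), the transcription factor required for erythroid maturation, had 108, 363, 351 and 233 CPM in LFD 1 to 4 and 47.8, 134 and 182 CPM in HFD 2 to 4. Klf1 (ENSMUSG00000054191, chromosome 8, 84901928 to 84905291), which drives adult beta globin and many red cell genes, had 310.2, 1107, 1069 and 767 CPM in LFD 1 to 4 and 169, 543 and 608 CPM in HFD 2 to 4. In both genes LFD 1 lay below HFD 3 and HFD 4, so that LFD 1 and HFD 2 were the 2 lowest libraries. Means were 264 ± 119 CPM (SD, n = 4) in LFD and 121 ± 68.1 CPM (SD, n = 3) in HFD for Gata1 (log2 fold change -1.12 ± 0.55 (SE), adjusted p = 0.685) and 813 ± 368 CPM (SD, n = 4) in LFD and 440.0 ± 237 CPM (SD, n = 3) in HFD for Klf1 (log2 fold change -0.89 ± 0.56 (SE), adjusted p = 0.707).

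Epor, the erythropoietin receptor, had 57.0, 227, 239 and 155 CPM in LFD 1 to 4 and 32.3, 94.2 and 134 CPM in HFD 2 to 4. Tfrc, the transferrin receptor through which iron enters, had 518, 1913, 2607 and 1501 CPM in LFD 1 to 4 and 408, 1476 and 1352 CPM in HFD 2 to 4. Unlike Epor, Tfrc was higher in HFD 3 than in HFD 4. Its difference between diets was among the smallest (log2 fold change -0.60 ± 0.61 (SE), adjusted p = 0.818), as was that of Nfe2, a globin gene activator (log2 fold change -0.59 ± 0.58 (SE), adjusted p = 0.801). Tal1, which acts in a complex with Gata1, had 27.0, 95.7, 108 and 71.5 CPM in LFD 1 to 4 and 14.6, 56.0 and 55.8 CPM in HFD 2 to 4. Gfi1b, a repressor needed in erythroid and megakaryocyte cells, had 74.2, 237, 231 and 155 CPM in LFD 1 to 4 and 37.4, 121 and 145 CPM in HFD 2 to 4. In both, as in Gata1, LFD 2 and LFD 3 were highest and HFD 2 was lowest.

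The heme genes had the lowest median log2 fold change of the 5 roles with several genes, -0.97, with 0 of 8 called. Alas2 (ENSMUSG00000025270, chromosome X, 150547375 to 150570638), the erythroid enzyme of the first step, had 5352, 10887, 11668 and 7158 CPM in LFD 1 to 4 and 1484, 4619 and 6848 CPM in HFD 2 to 4. Ppox, the enzyme of the step before the last, had 151, 378, 342 and 211 CPM in LFD 1 to 4 and 53.9, 145 and 165 CPM in HFD 2 to 4. For both, LFD 2 and LFD 3 were highest and HFD 2 lowest, and LFD 1 lay inside the HFD range. The difference was log2 fold change -1.02 ± 0.56 (SE), adjusted p = 0.693 for Alas2 and log2 fold change -1.16 ± 0.47 (SE), adjusted p = 0.626 for Ppox.

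Alad, which joins aminolevulinate pairs, had 295, 973, 1025 and 721 CPM in LFD 1 to 4 and 138, 408 and 527 CPM in HFD 2 to 4. Cpox, a mitochondrial oxidase, had 555, 1579.6, 1789 and 1192 CPM in LFD 1 to 4 and 259, 848 and 1012 CPM in HFD 2 to 4. Slc25a37, the mitochondrial iron importer mitoferrin, had 477, 1547, 1875 and 1023 CPM in LFD 1 to 4 and 213, 836 and 971 CPM in HFD 2 to 4. In these 3 genes LFD 1 lay below HFD 3 and HFD 4 as well as below the other LFD libraries. Fech, which inserts iron, had 2359, 5534, 5856 and 3617 CPM in LFD 1 to 4 and 734, 2403 and 3364 CPM in HFD 2 to 4. Urod and Uros, of the middle steps, had log2 fold changes of -0.94 and -0.82. The range over the 8 heme genes was narrow, from -1.16 to -0.82.

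The membrane and skeleton genes had a median log2 fold change of -0.88, with 0 of 10 called. Slc4a1 (ENSMUSG00000006574, chromosome 11, 102348824 to 102366203), the band 3 anion exchanger, had 4775, 17573, 18396 and 10042 CPM in LFD 1 to 4 and 1792, 7391 and 9734 CPM in HFD 2 to 4. Sptb, the beta chain of spectrin, had 370.1, 1479, 1398 and 914 CPM in LFD 1 to 4 and 172, 906 and 1102 CPM in HFD 2 to 4. HFD 4 was above LFD 4 for Sptb, which had the smallest difference of all 38 genes (log2 fold change -0.52 ± 0.67 (SE), adjusted p = 0.870), whereas for Slc4a1 it was just below (log2 fold change -1.01 ± 0.68 (SE), adjusted p = 0.717). Ank1, which ties band 3 to spectrin, had 68.5, 213, 194 and 116 CPM in LFD 1 to 4 and 16.3, 96.9 and 127 CPM in HFD 2 to 4. Its level in HFD 2 was the farthest below its own mean of any of the 38 genes, by 2.53 on the log2 scale.

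Epb41 and Epb42, the protein 4.1 and 4.2 genes, had log2 fold changes of -0.71 and -0.96. The blood group genes Rhag, Rhd, Kel, Ermap and Icam4, which encode surface proteins of the red cell, lay between -0.98 (Rhd) and -0.74 (Icam4). Rhd had 815, 2447, 2425 and 1698 CPM in LFD 1 to 4 and 303, 1107 and 1394 CPM in HFD 2 to 4. Kel had 132, 491, 569 and 320.1 CPM in LFD 1 to 4 and 68.9, 261 and 295 CPM in HFD 2 to 4. In both, LFD 2 and LFD 3 were highest and LFD 1 and HFD 2 lowest.

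Of the late maturation genes 0 of 8 were called, and the median log2 fold change was -0.89. Trim58, a ubiquitin ligase of late erythroblasts, had the largest difference of the 38 (log2 fold change -1.39 ± 0.60 (SE), adjusted p = 0.662) and 90.1, 271, 305 and 138 CPM in LFD 1 to 4 and 25.1, 89.6 and 116 CPM in HFD 2 to 4. Bpgm, which makes the 2,3-bisphosphoglycerate that lowers the oxygen affinity of hemoglobin, had 2117, 3128, 3563 and 2427 CPM in LFD 1 to 4 and 577, 1324 and 2349 CPM in HFD 2 to 4. Bnip3l, which clears mitochondria, had 539.8, 865, 975 and 689.6 CPM in LFD 1 to 4 and 195, 412 and 612 CPM in HFD 2 to 4. In Bpgm and Bnip3l LFD 1 lay above HFD 3, whereas in Trim58 the same 2 libraries were level.

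Car1 and Car2, the carbonic anhydrases, had log2 fold changes of -0.52 and -0.66. Car2 had 5162, 13037, 15375 and 9683 CPM in LFD 1 to 4 and 2253, 8318 and 9956 CPM in HFD 2 to 4. Hemgn, a nuclear protein of erythroid cells, had 342, 1161, 1272 and 876 CPM in LFD 1 to 4 and 168, 613 and 716 CPM in HFD 2 to 4. Trim10 and Tspo2 had log2 fold changes of -0.92 and -0.86. No late gene separated the diets.

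The 4 adult globins had a median log2 fold change of -0.93 and 0 calls. Hbb-bs (ENSMUSG00000052305, chromosome 7, 103826534 to 103828096), the major adult beta globin, had 48228, 53150.4, 68826 and 52692 CPM in LFD 1 to 4 and 9556, 33466 and 52096 CPM in HFD 2 to 4. Hba-a1 (ENSMUSG00000069919, chromosome 11, 32283511 to 32284465), an alpha globin, had 13456, 26648, 25920.2 and 19115 CPM in LFD 1 to 4 and 4360.1, 10644 and 15782 CPM in HFD 2 to 4. LFD 1 was the lowest LFD library for both, but for Hbb-bs it stood close to LFD 2 and LFD 4 and above HFD 3. Hbb-bt had 12432, 17818, 20249 and 14674 CPM in LFD 1 to 4 and 3149.6, 11683 and 14232 CPM in HFD 2 to 4. Hba-a2 had 6210.0, 7659, 8269 and 5578 CPM in LFD 1 to 4 and 1163, 3348 and 5615 CPM in HFD 2 to 4. In Hba-a2, LFD 4 and not LFD 1 was the lowest LFD library, the only such gene of the 38. Hba-a1 with Hba-a2, and Hbb-bs with Hbb-bt, are near-identical pairs, and how reads matching both copies were counted is not given in the sources used here, so the split within each pair is uncertain. The sum of beta over alpha globin ranged from 2.07 to 3.23 in CPM across the libraries. If reads matching both copies were left out, this ratio and the globin levels and shares are uncertain as well.

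The embryonic globin Hba-x was at 0 counts in all 7 libraries. Hbb-y reached at most 2.11 CPM and Hbb-bh1 at most 1.55 CPM, both in LFD 3. The theta globins were low beside the adult ones: Hbq1a reached at most 10.8 CPM, and Hbq1b had 68.0, 139, 188 and 105 CPM in LFD 1 to 4 and 17.1, 54.4 and 96.8 CPM in HFD 2 to 4. HFD 2 was again the lowest library for Hbq1b (log2 fold change -1.16 ± 0.57 (SE), adjusted p = 0.685).

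The roles parted in 1 library, LFD 1. As log2 distance from each gene's own mean over 7 libraries, the medians in LFD 1 were -0.85 for regulators, -0.57 for membrane genes, -0.52 for heme genes, -0.39 for late genes and 0.17 for globins, with Cd24a at -0.71. In HFD 2 the medians lay close together, at -1.74, -2.03, -1.80, -1.84 and -1.96 in the same order, with Cd24a at -1.68. In LFD 2 and LFD 3 they lay between 0.65 and 1.06, in LFD 4 between 0.31 and 0.47, in HFD 3 between -0.34 and 0.00 and in HFD 4 between 0.20 and 0.27. Globins were the lowest role in LFD 2, LFD 3 and HFD 3 and the highest in LFD 1. LFD 1 is a single library, and the difference between roles has no replicate.

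**Figure D3:**
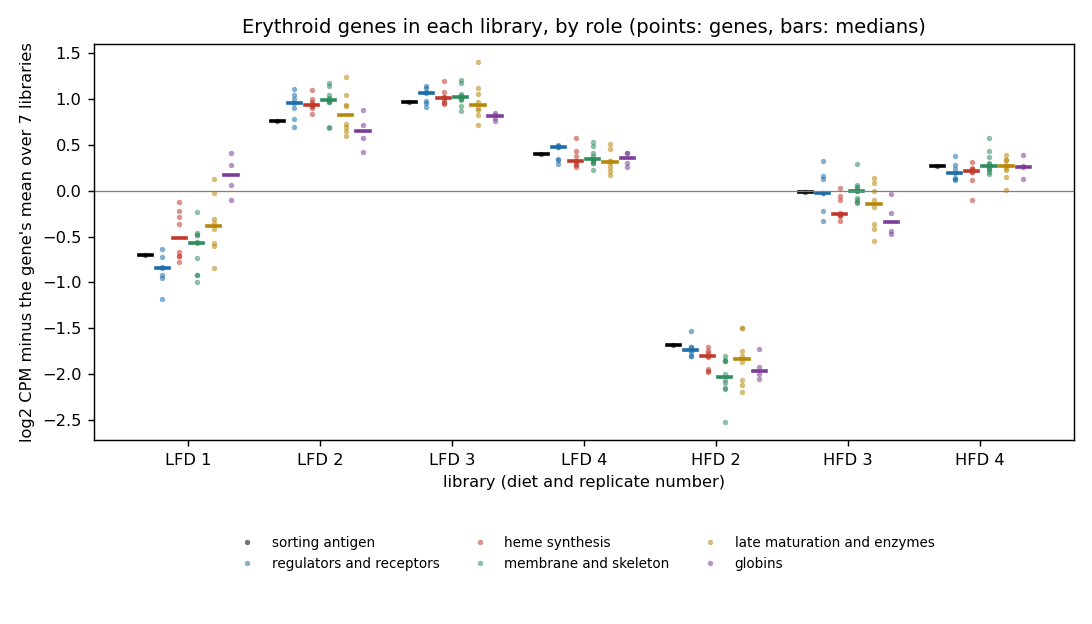
Points are genes, placed by their log2 CPM minus the gene's mean over 7 libraries, and bars are the medians of each role in each library. In LFD 1 the medians run from -0.85 for regulators to 0.17 for globins, and in HFD 2 all lie between -2.03 and -1.68.

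Library scaling cancels in a ratio of 2 genes within a library, and gene length stays fixed. Hbb-bs over Klf1 was 155 in LFD 1 and between 48.0 and 85.7 in the other 6 libraries. Hbb-bs over Gata1 was 446 in LFD 1 and between 146 and 286 in the others. Bpgm over Tfrc, a late gene over an early one, was 4.09 in LFD 1 and between 0.897 and 1.74 in the others. LFD 1 stood apart in each of these 3 ratios, whose genes were picked after their values were seen. The other late genes did not all follow Bpgm: in LFD 1 Bpgm was 0.13 above its own mean on the log2 scale, while Hemgn stood at -0.84, Car2 at -0.61 and Tspo2 at -0.57. Cpox over Cd24a was between 0.335 and 0.375 in all 7 libraries, at 0.363 to 0.375 in LFD and 0.335 to 0.346 in HFD. Cpox was the gene of the set that followed Cd24a most closely, so a nearly constant ratio comes with that choice. Other ratios over Cd24a varied more: 1.89 to 3.52 for Alas2, 2.32 to 4.17 for Slc4a1 and 12.4 to 31.7 for Hbb-bs.

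**Figure D4:**
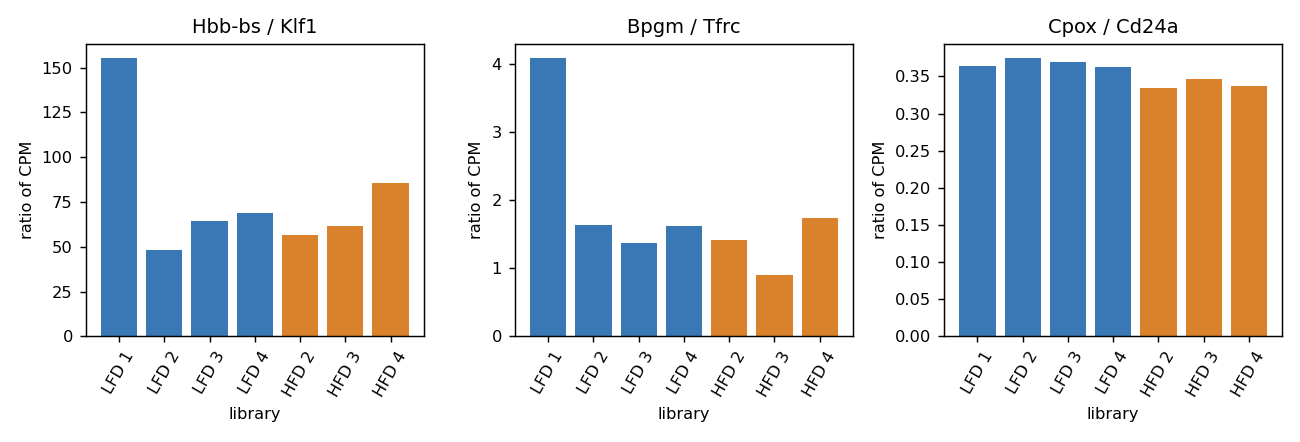
Bars are ratios of CPM between 2 genes in each library, with LFD in blue and HFD in orange and axes from 0. Hbb-bs over Klf1 (155) and Bpgm over Tfrc (4.09) are highest in LFD 1. Cpox, the gene that followed Cd24a most closely, has a ratio over Cd24a between 0.335 and 0.375.

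Cd24a (ENSMUSG00000047139, chromosome 10, 43578284 to 43584265) was the gene of an antigen on which cells were sorted, and its level was set against the other 37 genes. It had 1522, 4212, 4846 and 3286 CPM in LFD 1 to 4 and 773, 2449 and 3001 CPM in HFD 2 to 4. Its difference between diets (log2 fold change -0.74 ± 0.56 (SE), adjusted p = 0.739) was below the spread between libraries. Itgb1, the gene of the other sorting antigen CD29, varied far less, from 368 to 496 CPM, and its r with Cd24a was -0.64 (exact permutation p = 0.128, adjusted p = 0.355; rho -0.75, exact permutation p = 0.0663, adjusted p = 0.226).

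All 37 genes correlated positively with Cd24a across libraries. Pearson's r of log2 CPM over the 7 libraries ranged from 0.853 (Hba-a2) to 0.999 (Cpox), with a median of 0.987, beside a median of -0.17 over all genes. In a two-sided exact permutation test over all 5040 orders, adjusted over 14303 genes, 34 of 37 passed 0.05 with a positive sign, against 8.35% of all genes (9.21% with either sign). An r of 0.9 or more was reached by 34 of 37, against 9.33% of all genes. Spearman's rho passed in 32 of 37, against 5.91%. Those not past by Pearson were Hba-a2, Hbb-bs and Bpgm. Genes in these libraries share the mix of cells and the library scaling, and 7 points cannot separate Cd24a from any other source of the same pattern.

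By role, the median r with Cd24a was 0.993 for regulators, 0.989 for membrane genes, 0.984 for heme genes, 0.979 for late genes and 0.901 for globins. Cpox had r = 0.999 (exact permutation p = 0.000198, the smallest the orders can give; adjusted p = 0.0101; rho 1, exact permutation p = 0.000397, adjusted p = 0.0170). Hemgn had r = 0.999, Slc25a37 r = 0.997, and Gfi1b and Ermap r = 0.996. Hbb-bs had r = 0.876 (exact permutation p = 0.0171, adjusted p = 0.115; rho 0.96, exact permutation p = 0.00278, adjusted p = 0.0373). Hba-a2 had r = 0.853 (exact permutation p = 0.0238, adjusted p = 0.142; rho 0.75, exact permutation p = 0.0663, adjusted p = 0.226). The globins had the lowest median r of the 5 roles over the 7 libraries. Without LFD 1, the lowest r of any of the 37 genes was 0.971 (Ppox), so no globin lay below that. The difference between roles was not tested.

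The 2 libraries farthest from the median of Cd24a were HFD 2 and LFD 1. Without both, r was from 0.863 (Sptb) to 0.997 (Hbb-bt). Using deviations from each diet's mean, r was from 0.825 (Hba-a2) to 0.9998 (Cpox), though the 144 orders allow no p below 0.00694 and 0 of 37 passed the adjustment. With 1 library left out, 720 orders remain and the smallest p is 0.00139. The number past adjusted p of 0.05 was then 33 of 37 without LFD 1 (6.42% of all genes), 19 without LFD 2 (3.5%), 18 without LFD 3 (3.33%), 18 without LFD 4 (3.3%), 20 without HFD 3 (3.19%) and 28 without HFD 4 (5.60%). Without HFD 2 it was 0 of 37, where 0% of all genes passed, and r ranged from 0.491 (Hba-a2) to 0.997 with a median of 0.975.

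**Figure D5:**
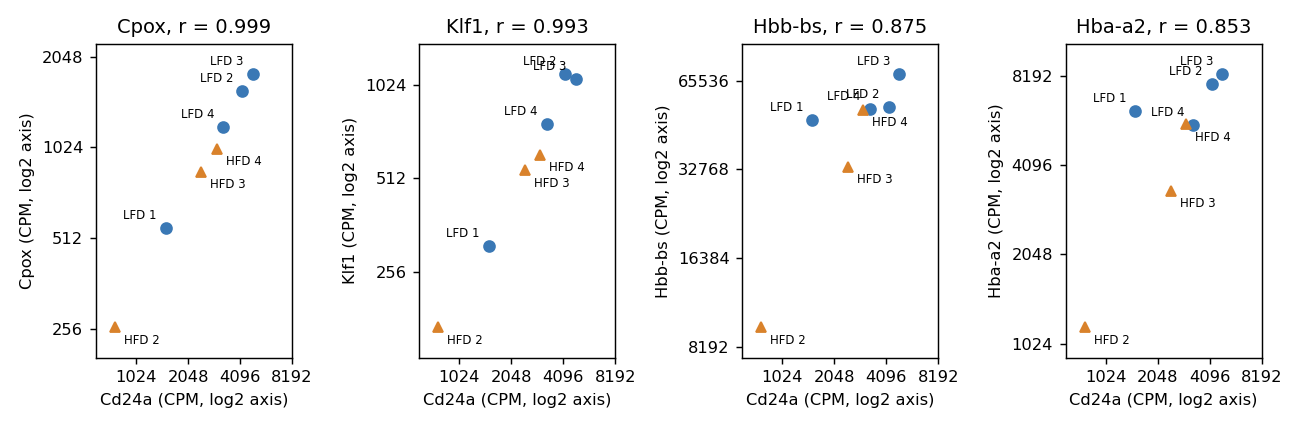
Each point is a library, with Cd24a on the x axis and another gene on the y axis, both in CPM on log2 axes; circles are LFD and triangles HFD. Cpox (r = 0.999) and Klf1 (r = 0.993) follow Cd24a, while for Hbb-bs and Hba-a2 LFD 1 lies above the trend of the other libraries.

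Over all 703 pairs of the 38 genes the median r was 0.974. The lowest was 0.694, between Hba-a2 and Tfrc, followed by Hbb-bs with Tfrc (0.735) and Tfrc with Bpgm (0.757). Pairs of a globin and a regulator had a median of 0.868, and pairs of 2 regulators 0.987. The 3 lowest values thus all involved Tfrc.

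Further erythroid genes, from a list of 91 with rows, were mostly lower in HFD. Most of those with the smallest p were higher, as were most of all genes with unadjusted p below 0.05. Of 87 tested, 70 were lower and 17 higher in HFD, with a median log2 fold change of -0.70 beside 0.02 for all genes. Of the 87, edgeR called 0, with 8 at unadjusted p below 0.05 in either direction (7.53% of all genes). Over all genes, 1077 had such a p, and 336 of them were lower in HFD. Of the 8 erythroid genes, Foxo3 was lower in HFD, and Erfe, Alas1, Trf, Add3, Tpm1, Cd44 and Pgk1 were higher. The groups did not overlap for 6 of the 87, each higher in HFD, where 11.9% of all genes had no overlap in either direction. Of those 1698 genes, 497 were lower in HFD. DESeq2 and limma-voom each called 1, Erfe, beside the calls over all genes given in the last section.

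Erfe, which encodes the erythroid hormone erythroferrone that represses hepcidin, ran the other way. It had 10.8, 3.32, 8.15 and 8.49 CPM in LFD 1 to 4 and 50.9, 42.6 and 35.2 CPM in HFD 2 to 4. Every HFD library was above every LFD library, which held in either direction for 11.9% of all genes (log2 fold change 2.48 ± 0.39 (SE), adjusted p = 0.163; unadjusted p = 0.000217). Its r with Cd24a was -0.63. Alas1, the housekeeping form of the first heme enzyme, had 30.2, 13.5, 19.8 and 30.4 CPM in LFD 1 to 4 and 53.4, 37.9 and 38.1 CPM in HFD 2 to 4, again with no overlap (log2 fold change 0.88 ± 0.32 (SE), adjusted p = 0.589). Trf, the gene of transferrin, was also higher in each HFD library, between 3.10 and 5.17 CPM against 0.876 to 1.78 CPM. Cd44, an adhesion receptor, and Tpm1, a tropomyosin, were higher in each HFD library with log2 fold changes of 0.59 and 0.47. Foxo3, a transcription factor of late erythroid cells, was lower (log2 fold change -1.03 ± 0.41 (SE), adjusted p = 0.620) with overlapping groups. None of these passed the adjustment in edgeR.

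Markers of granulocytes and monocytes were higher in HFD, the opposite direction to the erythroid genes. The 12 granulocyte markers summed to 950 to 5434 CPM in LFD and 8462 to 16420 CPM in HFD, with 12 of 12 higher in HFD and 0 called. The 12 monocyte and macrophage markers summed to 211 to 875 CPM in LFD and 1721 to 2202 CPM in HFD, with 11 of 12 higher. The median r with Cd24a was -0.15 for granulocyte and -0.24 for monocyte markers. B lineage markers, whose cells carry CD24, summed to 20.9 to 107 CPM in LFD and 89.7 to 134 CPM in HFD.

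Markers of the macrophages around which erythroblasts mature summed to 561 to 696 CPM in LFD and 570 to 802 CPM in HFD, with Vcam1 (242 to 386 CPM) and Axl (113 to 271 CPM) the most abundant. Among the 10 genes of this list, Timd4 was at 0 in all 7 libraries, Spic and Siglec1 were each above 0 in only 1 library, and Cd163 was at 0 to 6.22 CPM. Others of the list were present throughout, Slc40a1 at 56.0 to 148 CPM and Hmox1 at 6.34 to 15.6 CPM. The r of the tested genes with Cd24a ran from -0.80 to 0.97, with a median of -0.46. Megakaryocyte and platelet markers summed to 28.4 to 61.7 CPM in LFD and 9.50 to 36.2 CPM in HFD, with Gp6 at 0. Stem and multipotent blood markers summed to 78.6 to 175 CPM in LFD and 88.3 to 138 CPM in HFD. T and NK markers summed to 1.52 to 13.3 CPM in LFD and 11.3 to 14.7 CPM in HFD, with Cd3g, Cd8a and Gzma at 0. The median r with Cd24a was 0.47 for megakaryocyte markers, 0.15 for B lineage markers and 0.73 for the 3 T and NK markers that passed the filter. The part of these cells in the erythroid differences was not tested.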

How the data were processed

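Per the labels' protocols, RNA of sorted cells was amplified with a low-input full-length cDNA kit and sequenced as read pairs. Per the submitters' processing notes, tools included bcl2fastq 2.20, cutadapt, STAR 2.5.2b, HTSeq 0.11.2 and DESeq2 1.26.0, with build mm10; the sources used here give no setting for strand or for reads with several matches. The deposited values are raw read counts per gene. Of 42687 identifiers, 42250 were paired with a symbol; the 437 others held at most 0.0216% of counts.

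The 39 genes, their roles and all lists were chosen with earlier results of these data known. All 38 with a row passed edgeR's filter (filterByExpr, 14304 genes). Diets were compared with edgeR 4.0.16 (R 4.3.3; quasi-likelihood, robust, diet only), adjusted over all genes; alternatives used DESeq2 1.42.0 and limma 3.58.1. Correlations used log2 CPM with a prior count of 2. Lengths and coordinates came from GENCODE M21 (GRCm38), promoters from RefSeq. Named genes were the 38, up to 3 of each further erythroid sublist by smallest p, and the most abundant or absent markers. The embryonic globins were chosen after their values were seen. Outside this rule, the macrophage list genes Spic, Siglec1, Cd163, Slc40a1 and Hmox1 were also named with their values known. Some genes the rule also names are not reported here. The tests were checked on simulated data. Pairs of libraries of a diet differed well beyond sampling noise (the chi-square was 53.8 to 299 times its degrees of freedom), and no library was counted as a copy of another.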

Additional observations from a re-analysis of the deposited data

Results flagged for a closer look

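Of 125 erythroid genes checked within the 4 LFD libraries, 5 had a library far from the other 3, its gap to the nearest exceeding Dixon's 95% critical share of the whole range. Chance flags about 1 in 20 groups, and 5 of 125 is not above that rate. None of the 38 genes described above was among the 5. Runx1t1, a corepressor, was at 6.78 CPM in LFD 1 and between 20.5 and 21.5 CPM in the other 3. Stat5a, a transcription factor below the erythropoietin receptor, was at 35.8 CPM in LFD 1 and between 17.7 and 19.5 CPM in the others. Its paralog Stat5b was at 40.5 CPM in LFD 1 and between 62.5 and 62.8 CPM in the others, so the pair moved in opposite directions in that library. Flvcr1, a heme exporter, was at 5.53 CPM in LFD 4 and between 9.82 and 10.5 CPM in the others. Hmox1, the enzyme that degrades heme, was at 13.5 CPM in LFD 2 and between 6.34 and 7.55 CPM in the others.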

How the results depend on the processing

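In each alternative run, all 38 genes were lower in HFD and 0 were called. Because these genes moved together across libraries, their shared direction is not 38 separate results. The median log2 fold change was between -0.92 and -0.70 under other scalings, filters and tools, and between -1.29 and -0.46 with 1 library left out. The number lower at unadjusted p below 0.05, with the share of all genes, was 10 with DESeq2 (3.36%), 8 with limma-voom (5.15%), 7 without LFD 1 (6.23%), 8 without HFD 4 (3.09%), and 0 without LFD 2 (1.86%), LFD 3 (1.78%), HFD 2 (1.20%) or HFD 3 (1.80%). No pairing by replicate number was seen. Same-numbered libraries correlated at -0.10, 0.03 and -0.06, and different-numbered ones between -0.15 and 0.13. These are too few pairs to decide whether the numbers mark a pairing. With the replicate number as a block, 0 of 38 were called and 4 were at unadjusted p below 0.05 (3.15% of all genes). The median was then -1.34, beside 0.15 over all genes. Among further erythroid genes 1 (Erfe) was called by DESeq2 and 1 by limma-voom. Over all genes, DESeq2 called 361 of 22988 and limma-voom 26 of 14304. With edgeR, 8 genes were called without the filter, 10 at adjusted p of 0.1, and 0 under the stricter filter or the block. The cause of these differences was not tested. The number of genes whose correlation with Cd24a passed was 34 under each other scaling (9.53% to 9.77% of all genes), 32 without the filter (4.44%), 0 to 33 with 1 library left out (0% to 6.42%), and 0 with diet means removed (0%), where 144 orders remain. The lowest count of any of the 38 genes was 418 (Tal1 in HFD 2).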
